A study of Oryza sativa with 6 samples.

Results

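Gibberellins are growth hormones of plants, and in rice the amount of active hormone sets stem and leaf elongation. The hormone is made from a diterpene precursor by cyclases in plastids, then by cytochrome P450 enzymes and finally by soluble oxidases, and other oxidases and P450 enzymes inactivate it. Active gibberellin is bound by the soluble receptor GID1, which then binds the DELLA repressor SLR1 and leads to its degradation. The genes described here are 10 genes of this pathway, chosen by their locus identifiers from the 30020 genes of the table: CPS1, KS1, KO2 and KAO of early synthesis, GA20ox2 and GA3ox2 of late synthesis, GA2ox3 and EUI of inactivation, and GID1 and SLR1 of signalling. All 10 have a row by this choice, so their presence is not a result.

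The libraries came from rice seedlings (Oryza sativa) aged 30 days, raised in long days on a sterile medium, 3 samples of the oschz1 mutant and 3 of wild-type. The study describes the oschz1-1 plants as homozygous and free of the transgene, with a small CRISPR/Cas9 deletion that ends translation of the histone chaperone OsChz1 early. The cultivar of the wild-type is given in the sample titles as NIP, and each sample is said to pool several seedlings. The values used are a mean normalized read count per gene, which the authors averaged over the 6 libraries of both genotypes together. Every level below is therefore a level over oschz1 and wild-type seedlings together, and whether oschz1 differed from wild-type in any of these genes was not tested. No spread between samples goes with such a mean. The error given is an upper limit on counting error alone, worked out from what 1 read adds to the mean, which was between 0.105 and 0.280 depending on the library. PCR copies are not independent molecules, so the true counting error may be larger.

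The samples were checked against genes that mark green leaf tissue. CAB1R, a light-harvesting protein gene of the antenna, had the highest mean of all genes at 227551. The loci listed as RbcS4, for the small subunit of Rubisco, and LHCB1.3, another light-harvesting gene, had means of 23023 and 11869. For scale, the actin gene ACT1 had a mean of 2773 and the elongation factor gene REFA1 one of 6297. The middle of the table lay far lower, at a median of 154.7, with a lower quartile of 9.96 and an upper quartile of 665.5.

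All 10 gibberellin genes were read deeply enough to be placed in the table with little counting error. Their means spanned 77.7 to 2879, with a median of 356.7, against 154.7 over all genes. Of the 10, 7 lay above the median of all genes and 4 above the upper quartile, which 25% of all genes exceed by definition. Here and below, all genes means the 30020 genes with a row, of which the lowest mean was 0.210. A locus without a row was not ranked, so the median, quartiles and percentiles do not cover every locus of the genome. The bound on counting error was widest at KAO and narrowest at SLR1, where it was 0.986% for SLR1. A read count grows with the length of the transcript as well as with its abundance. Lengths were not used here, so the order that follows is an order of reads and not of transcripts per cell. Because RNA was extracted in bulk from seedlings, high expression in few cells and low expression in many cells also cannot be told apart.

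**Figure D1:**
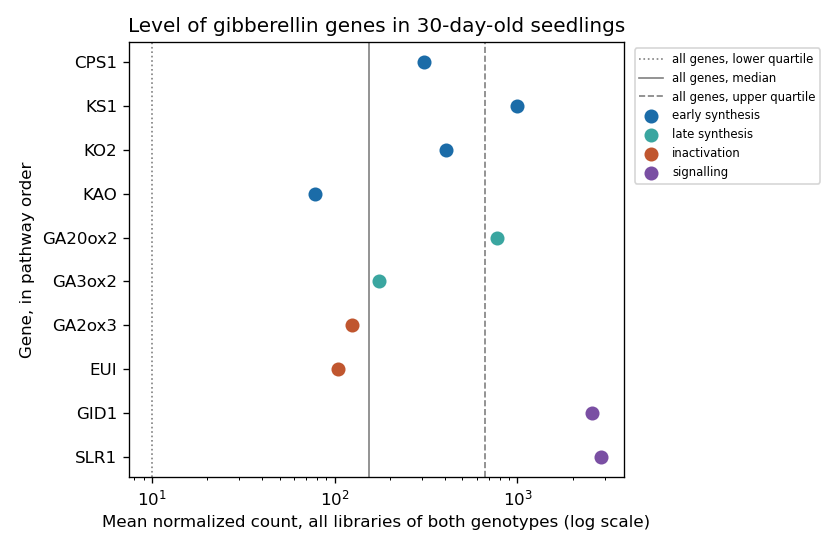
Mean normalized count of each of the 10 gibberellin genes on a log axis, 1 point per gene in pathway order from synthesis at the top to signalling at the bottom, coloured by role. The points are the authors' means over the libraries of both genotypes and carry no error bars, and the vertical lines mark the quartiles and median of all 30020 genes. GID1 and SLR1 stand at the right, at 2552 and 2879, and KAO furthest to the left, at 77.7.

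The signalling genes had the most reads. SLR1 (LOC_Os03g49990), the DELLA protein that represses growth until gibberellin removes it, had a mean normalized count of 2879, and 1445 of the 30020 genes had a higher one. Between 10291 and 27452 reads lie behind this value over the 6 libraries, the range being set by which libraries they came from. GID1 (LOC_Os05g33730), the receptor, had a mean of 2552, which placed it above 94.2% of all genes. The means of SLR1 and GID1 differed by a ratio of 1.13, with a counting error of at most 1.44% on that ratio. In reads, both stood close to the actin gene ACT1, at 2773. GID1 and SLR1 were well apart from the other 8 genes, of which the highest, KS1, was lower than GID1 by a ratio of 2.57.

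The genes of early synthesis were spread over more than a factor of 10. KS1 (LOC_Os04g52230), the synthase that makes ent-kaurene, the hydrocarbon skeleton of the hormone, had the highest mean of them, 994. It lay above 82.4% of all genes. CPS1 (LOC_Os02g17780), the cyclase for the step before it, which commits the precursor to this pathway, had a mean of 309. The plastid steps were thus read unequally, with 3554 to 9480 reads for KS1 and 1105 to 2948 for CPS1.

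KO2 (LOC_Os06g37364), the P450 enzyme that oxidizes ent-kaurene, had a mean of 404 and exceeded 65.4% of all genes. KO2 lies in a cluster of related P450 genes on chromosome 6. The authors kept reads with a unique alignment, so reads that KO2 shares with a near-identical neighbour would be missing from its value, and the value is uncertain to that degree. The same filter applied to every gene, and such losses were not examined for KO2 or any other gene here. KAO (LOC_Os06g02019), the P450 enzyme that converts ent-kaurenoic acid into the first gibberellin, had the fewest reads of all 10 genes. Its mean was 77.7, from 278 to 741 reads, and it exceeded 42.0% of all genes. KAO was the only gene of early synthesis below the median of all genes, which KS1, CPS1 and KO2 exceeded.

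In late synthesis GA20ox2 was read more than GA3ox2. GA20ox2 (LOC_Os01g66100), known as SD1 and as the semidwarf gene of Green Revolution rice, encodes the oxidase that makes the precursors of active gibberellins. Its mean was 777, above 77.8% of all genes. GA3ox2 (LOC_Os01g08220), the gene altered in the dwarf mutant d18, encodes the oxidase for the last step to the active hormone. Its mean was 174, above 51.7% of all genes and close to their median.

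The inactivating enzymes among the 10 genes both lay below the median of all genes. GA2ox3 (LOC_Os01g55240), an oxidase that inactivates gibberellins, had a mean of 124 and exceeded 47.2% of all genes. EUI (LOC_Os05g40384), a P450 enzyme whose loss gives an elongated uppermost internode, had a mean of 105 and exceeded 45.1%. The means of GA2ox3 and EUI differed by a ratio of 1.18, with a counting error of at most 7.02%. In the order of the 10 genes each step to the next gene was larger than its counting error, the smallest ratio being that of SLR1 over GID1. Whether any such step exceeds the spread between samples was not tested.

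**Figure D2:**
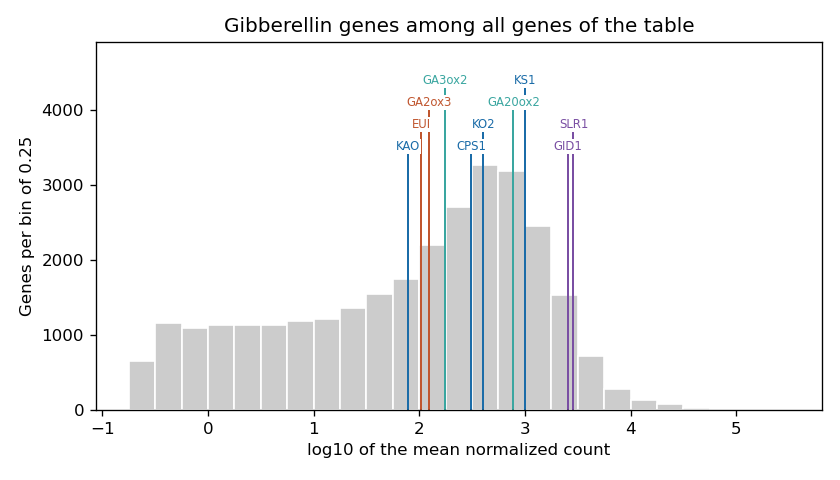
Number of genes (grey bars) by log10 of the mean normalized count, in bins of 0.25, with a coloured line at each of the 10 gibberellin genes, coloured by role (blue, early synthesis; green, late synthesis; orange, inactivation; purple, signalling). The label heights are staggered for legibility only. The 10 genes fall between 77.7 and 2879 and none in the low part of the distribution, under 10.

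A wider list of 18 gibberellin genes was set beside these 10, and 15 of them had a row in the table. GA20ox3 (LOC_Os07g07420), GA3ox1 (LOC_Os05g08540) and SLRL2 (LOC_Os05g49930) had no row. The 15 genes had a median of 103 and ranged between 1.91 and 2686, and 7 of them lay above the median of all genes. The highest of these values belongs to the locus listed for GID2, whose reads are uncertain as described below. In the GA20ox family, GA20ox2 held 74.4% of the reads of the 3 measured members, as a share of summed means. The locus listed as GA20ox1 (LOC_Os03g63970) had a mean of 197 and that listed as GA20ox4 (LOC_Os05g34854) one of 69.8. Of the 2 GA3ox genes listed, GA3ox2 was the one with a value.

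The GA2ox family was read unevenly, and GA2ox3 was not its main member. All 10 listed members of this family had a row, with means between 1.91 and 1440. The loci listed as GA2ox10 (LOC_Os05g11810) and GA2ox6 (LOC_Os04g44150) had means of 1440 and 1066, and held 48.1% and 35.6% of the family's summed mean. GA2ox3 held 4.14% of it. GA2ox6 belongs with GA2ox5 and GA2ox9 to the branch of the family that acts on earlier, longer-chained gibberellins, and those listed as GA2ox9 (LOC_Os02g41954) and GA2ox5 (LOC_Os07g01340) had means of 166 and 84.7. GA2ox2 (LOC_Os01g22910) and GA2ox4 (LOC_Os05g43880), as listed, had means of 69.1 and 35.2.

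The remaining GA2ox genes were hardly read. The locus listed as GA2ox7 (LOC_Os01g11150) had a mean of 6.13 and that listed as GA2ox1 (LOC_Os05g06670) one of 3.78. The lowest, listed as GA2ox8 (LOC_Os05g48700), had a mean of 1.91, which is 7 to 18 reads over all 6 libraries. At so few reads its counting error was up to 38.3%. The symbols of the GA2ox genes come from general knowledge, since the reference gene table lists none of them under these names.

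**Figure D3:**
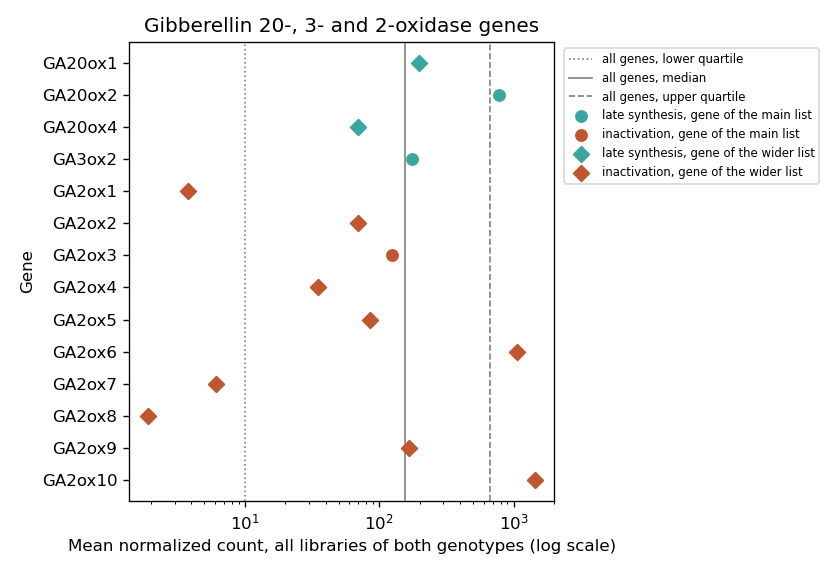
Mean normalized count on a log axis for the GA20ox, GA3ox and GA2ox genes that have a row in the table, 1 point per gene (circles, genes of the main list; diamonds, genes of the wider list), coloured by role. The points are the authors' means over both genotypes without error bars, and the vertical lines mark the quartiles and median of all genes. GA2ox10 and GA2ox6 lie to the right of the upper quartile with GA20ox2, whereas GA2ox1, GA2ox7 and GA2ox8 lie to the left of the lower quartile.

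Among signalling genes of the wider list, SPY and the GID2 locus had means above the upper quartile and SLRL1 one below the median of all genes. SPY (LOC_Os08g44510), whose Arabidopsis counterpart is a sugar transferase that restrains gibberellin responses, had a mean of 1809. GAMYB (LOC_Os01g59660), a transcription factor gene of gibberellin response known from cereal aleurone and anthers, had a mean of 181. SLRL1 (LOC_Os01g45860), a relative of SLR1 without the DELLA domain, had a mean of 103, whereas SLR1 itself had 2879. The locus listed for GID2 (LOC_Os02g36974), the F-box protein that targets SLR1 for degradation, had a mean of 2686. The reference gene table gives GID2 as a name of a pair of overlapping genes on chromosome 2, the other being the gene for the 14-3-3 protein GF14E. Which of them the reads came from was not tested, and this mean is not taken as a level of GID2.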

How the data were processed

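RNA-seq libraries were poly(A)-selected and strand-specific. The labels and the study's methods name different RNA extraction reagents. According to the methods, the authors aligned cleaned paired-end reads with HISAT2, filtered for uniqueness in SAMtools, counted by gene in featureCounts and ran DESeq2. The methods name MSU7, the Nipponbare assembly, as the genome of the alignments. Whether strand was used in counting was not given in the sources used here.

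The value used is a signal, the mean normalized count, which the authors obtained by dividing counts by size factors and averaging over all 6 libraries. The other 5 numeric columns hold the authors' own comparison of the genotypes (log2 fold change, its SE, the statistic, p and adjusted p) and were not used. A count model was foreseen had single libraries been given. Without them, no comparison of oschz1 with wild-type was made.

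What 1 read adds to the mean was read from the smallest means, of which the lowest (0.210) was taken as 2 reads. All 2243 means under 0.7 were then whole reads within 6e-08, with size factors between 0.596 and 1.59. The routine was tested on simulated data that were built to hold such values. That test therefore cannot show that the lowest mean here is 2 reads. Counting error is at most the square root of the largest amount per read over the mean.

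Symbols were paired with identifiers from general knowledge. The reference gene table (ASM3414082v1) places 8 of the 10 symbols on the chromosome of the identifier and lacks GA3ox2 and GA2ox3. Of the 18 wider symbols it places 5 so and lacks 13. A check gene, UBQ5, was left out because the reference places it on another chromosome. The members and lists were chosen with earlier results of these data known. Named are all 10 genes, those of the wider list with the highest and lowest means, and relatives of a described family. GAMYB was named outside this rule. Percentiles are the percent of genes with a row that had a lower mean. Tools were Python 3.11.15, pandas 2.3.3, NumPy 2.4.6 and SciPy 1.17.1.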

Additional observations from a re-analysis of the deposited data

How the results depend on the processing

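The percentile of each gene depends on which genes it is ranked among. Leaving out weakly read genes had to lower it for all 10, since only genes below each of them were removed. Only the size of the shift is therefore informative. Among genes with means of at least 1, it was 94.7 for SLR1, 93.6 for GID1, 80.5 for KS1, 75.4 for GA20ox2, 61.7 for KO2, 56.3 for CPS1, 46.5 for GA3ox2, 41.5 for GA2ox3, 39.3 for EUI and 35.7 for KAO. Among genes with means of at least 10, it was 93.6 for SLR1, 92.3 for GID1, 76.5 for KS1, 70.4 for GA20ox2, 53.9 for KO2, 47.4 for CPS1, 35.5 for GA3ox2, 29.6 for GA2ox3, 26.8 for EUI and 22.6 for KAO, so that CPS1 then lay below the middle, as GA3ox2 did in both settings.

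With only symbols placed by the reference, the median was 591 for 8 of the 10 genes, GA3ox2 and GA2ox3 being left out. It was 995 for 4 genes of the wider list that include the uncertain GID2 locus. With means of at least 10, the median of the wider list was 174. Levels per kb of coding sequence, and the order by them, were not run, since no lengths were used. The edgeR, DESeq2 and leave-one-out alternatives of the genotype comparison were not run. No paired analysis was possible because the column used carries no replicate numbers.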
